A study of Arabidopsis thaliana with 6 samples.

Results

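GDSL esterases and lipases are a large plant family of secreted and intracellular acyl hydrolases, named after a Gly-Asp-Ser-Leu motif that carries the catalytic serine. Unlike classical lipases they have a flexible active site and act on varied substrates, among them cutin and suberin monomers, seed storage lipids, sinapoyl esters and acetylated cell wall sugars. In Arabidopsis some members polymerize cutin in the epidermis, others build or degrade suberin in the root endodermis, and the function of most members is not known. The genes described here are 46 named loci of this family, and a probe set was taken to measure one of them when the platform's annotation gave it that gene alone. By this rule 37 of the 46 loci had a probe set of their own, 1 each, among the 22810 probe sets of the array.

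Transcripts were measured on Affymetrix ATH1 arrays in whole seedlings of the wild-type accession Col-0 (stock N1093) at developmental stage 1.04, raised on plates of 0.8% agar with days of 16 h light and 8 h darkness at 20 °C. The 3 ozone samples came from seedlings fumigated for 6 h with 500 ppb of ozone, an oxidizing air pollutant that enters leaves through stomata. The 3 control samples came from seedlings fumigated for 6 h with scrubbed air, that is, filtered air. RNA was extracted directly after fumigation, and each sample was hybridized to 1 array. Both gases were humidified and both groups stayed in their growth plates in sealed chambers.

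Values are MAS5 signals on a linear scale, which the authors scaled per array, and fold changes are differences of mean log2 signal, ozone minus control. Array medians were 41.7 to 49.5, and precision is limited by having 3 arrays a group. Spearman correlations across probe sets were 0.956 to 0.975 within the ozone group, 0.952 to 0.983 within the control group and 0.879 to 0.930 between them. Deviations from the group means were shared by the arrays numbered 1 (r = 0.747), while those numbered 2 and 3 correlated about as well across numbers (0.368 and 0.412) as within them (0.374 and 0.439). Whether replicates were separate cultures is not stated, and the p-values may therefore reflect technical spread only.

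After ozone, transcripts of GDSL loci fell more often than they rose, with a large rise at 1 locus. Of the 46 loci, 37 could be measured and 29 were bright enough to test; 14 of these 29 fell, 2 rose and 13 did not pass the threshold (limma, Benjamini-Hochberg adjusted p under 0.05 over 13648 tested probe sets). The 14 include AT4G26790, whose ozone signals all lay under the filter on dim probe sets. That locus was tested only through its control signals. The share that fell was 48.3%, against 14.9% of all tested probe sets, and the share that rose was 6.9%, against 13.0%. The loci were chosen with earlier results of these data known, so shares here and below describe the listed loci, not the family. The median log2 fold change was -0.60 over the 29 tested loci and -0.15 over all tested probe sets. AT1G29660 fell 5.28-fold and AT5G03610 rose 5.83-fold. In RNA from whole seedlings, fewer cells of a type and less RNA per cell cannot be told apart.

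In 18 of the 29 tested loci all 3 ozone arrays lay below all 3 control arrays (62.1%), an arrangement found at 27.5% of all tested probe sets. In 2 loci all 3 ozone arrays lay above, against 18.2%. At least 2-fold falls past the threshold were seen at 9 loci (31%), against 5.69% of all tested probe sets; these 9 include AT4G26790, whose ozone signals were all below the filter on dim probe sets. With the replicate number as a block in the fit, 17 loci fell (58.6%), against 30.0% of all tested probe sets, and the same 2 rose (6.9%, against 19.1%). Both shares moved with the arrays used: without ozone replicate 2, 10 loci fell (34.5%), against 7.44% of all tested probe sets, and without control replicate 3 also 10 (34.5%), against 7.26%. In these fits, and with median centring, more of all tested probe sets rose than fell (8.83%, 9.99% and 13.4% rose, the last against 11.7% that fell). The same held without control replicate 2 (10.2% rose, 7.78% fell) and with no filter (8.34% rose, 8.04% fell).

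**Figure D1:**
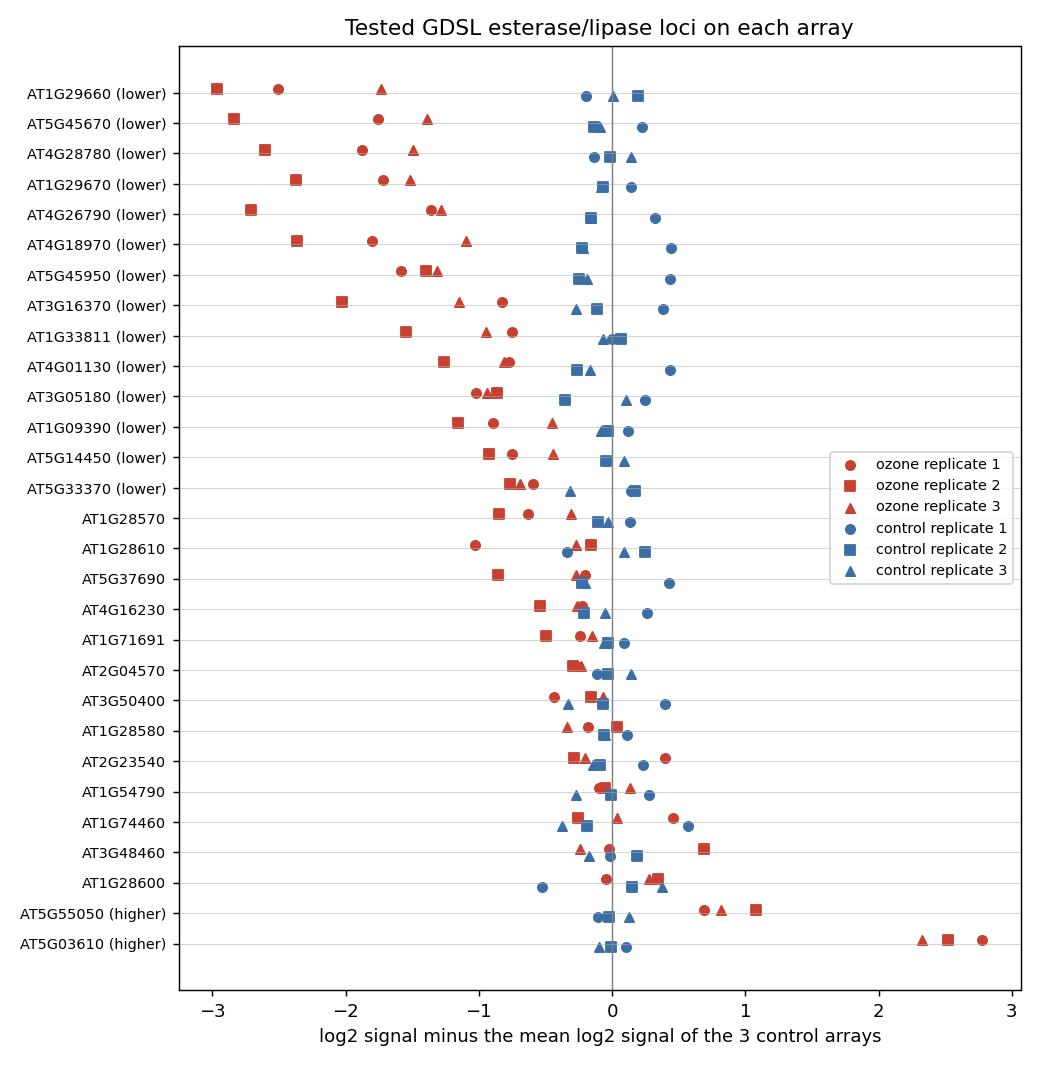
Each row is 1 of the 29 tested GDSL loci, ordered by fold change, and each point is 1 array's log2 signal minus the mean log2 signal of the 3 control arrays at that locus (red, ozone; blue, control; circle, square and triangle, replicates 1, 2 and 3). The 14 loci marked lower have all ozone points left of all control points, AT5G55050 and AT5G03610 have them on the right, and the 13 unmarked loci did not pass the threshold.

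The steepest fall was at AT1G29660, which stands next to AT1G29670 in the gene order and encodes a protein of the same family. AT1G29660 had signals of 86.4, 63.1 and 148.1 on the ozone arrays, against 428.6, 561.6 and 494.2 on the control arrays. The highest ozone value was under the lowest control value, and the log2 fold change was -2.40 (SE 0.298, limma adjusted p = 0.0012). Of the 13648 tested probe sets, 15 had a more negative log2 fold change.

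Its neighbour AT1G29670 had signals of 269.8, 171.8 and 311.4 on the ozone arrays, against 984.5, 850.7 and 841.9 on the control arrays. Again no ozone array reached a control array, and the transcript fell 3.66-fold (log2 fold change -1.87, SE 0.231, limma adjusted p = 0.00116). The difference between the responses of the 2 neighbours was -0.53 on the log2 scale (SE 0.245), with p = 0.2 in a two-sided exact permutation test over the 6 arrays, where the smallest p this design allows is 0.1, so this test cannot reach 0.05. Within the pairs of arrays with the same replicate number the difference was -0.44, -0.85 and -0.30, negative in all 3. The arrays numbered 2 and 3 are not told apart by their deviations, so these values do not decide whether the 2 responses differ.

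AT5G45670 and AT4G28780 fell to about the same degree as each other. AT5G45670 had signals of 76.0, 35.8 and 98.0 after ozone, against 299.3, 234.0 and 240.8 in scrubbed air. Ozone replicate 2 was the lowest of the 6 arrays, and the log2 fold change was -1.99 (SE 0.349, limma adjusted p = 0.00506). AT4G28780 had signals of 44.7, 26.9 and 58.1 after ozone, against 149.4, 162.5 and 181.2 in scrubbed air. The groups did not overlap, and its log2 fold change was also -1.99 (SE 0.281, limma adjusted p = 0.00209). A constant of 64 added before the log, which damps dim values, brought these fold changes to -1.29 and -1.10, and both loci passed.

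AT4G18970 had signals of 76.4, 51.8 and 124.4 after ozone, against 362.7, 227.5 and 229.1 in scrubbed air, and fell 3.37-fold (limma adjusted p = 0.0071). Its spread was wide in both groups, with control replicate 1 well above the other controls. AT4G26790 had signals of 25.0, 9.8 and 26.3 after ozone, against 80.0, 57.2 and 57.2 in scrubbed air (log2 fold change -1.78, SE 0.388, limma adjusted p = 0.0122). All 3 ozone values lay under 31.2, the signal of the filter on dim probe sets, so the size of this fall is uncertain: it shrank to -1.17 under an added constant of 16 and to -0.61 under 64, and the locus was below the filter without control replicate 1.

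**Figure D2:**
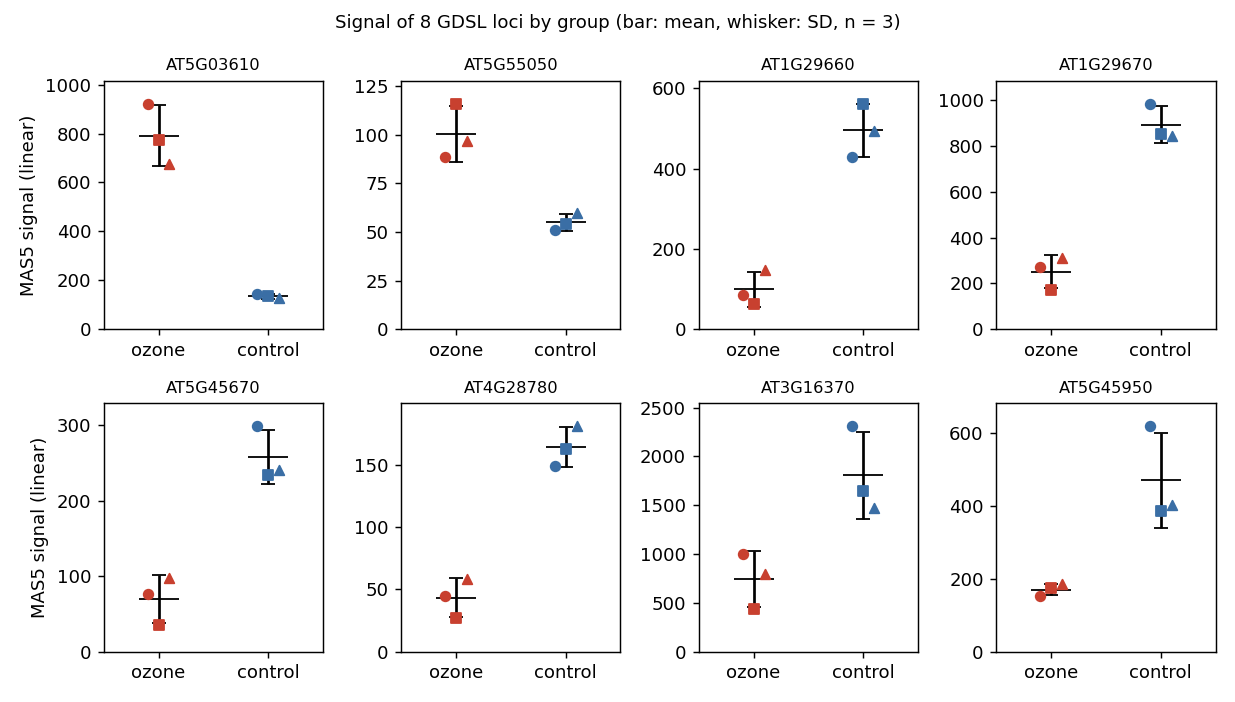
MAS5 signal (linear axis from 0) of 8 GDSL loci in the ozone group, on the left of each panel, and the control group, on the right; points are arrays (circle, square and triangle for replicates 1, 2 and 3), the bar is the mean and the whisker the SD (n = 3). AT5G03610 and AT5G55050 are higher on every ozone array, and the other 6 loci are lower on every ozone array.

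Further falls of at least 2-fold were at AT5G45950, AT3G16370 and AT1G33811. AT5G45950 had signals of 152.7, 174.1 and 184.7 after ozone, against 619.1, 386.4 and 403.3 in scrubbed air, a 2.70-fold fall (limma adjusted p = 0.00246). Here the ozone arrays were close together and control replicate 1 stood above the other controls. AT3G16370 had signals of 1002.3, 435.8 and 798.4 after ozone, against 2312.1, 1642.7 and 1469.0 in scrubbed air. It fell 2.52-fold with a wide spread in both groups (log2 fold change -1.33, SE 0.321, limma adjusted p = 0.018). AT1G33811 had signals of 135.2, 77.9 and 118.2 after ozone, against a narrow 227.9, 238.9 and 217.6 in scrubbed air, and fell 2.12-fold (limma adjusted p = 0.00909).

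The remaining 5 loci that fell changed by less than 2-fold, and each of their calls was lost when at least 1 array was left out. AT5G33370 encodes a cutin synthase, one of the enzymes that link cutin monomers outside epidermal cells, and is known for keeping the fine cuticular ridges on sepals. It had signals of 75.5, 66.9 and 70.5 after ozone, against 125.5, 128.4 and 91.4 in scrubbed air. The groups did not overlap, but control replicate 3 came closer to the ozone arrays than the other controls did. The log2 fold change was -0.68 (SE 0.189, limma adjusted p = 0.0304). Leaving out ozone replicate 2 or 3 gave an adjusted p of 0.1001 or 0.0642, leaving out control replicate 1 or 2 gave 0.0711 or 0.118, and median centring of the arrays gave 0.0646.

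AT4G01130 had signals of 53.7, 38.2 and 52.2 after ozone, against 123.8, 76.3 and 81.5 in scrubbed air (log2 fold change -0.95, limma adjusted p = 0.0241). The call was lost without ozone replicate 2 (log2 fold change -0.79, adjusted p = 0.0893) or control replicate 3 (-1.03, adjusted p = 0.0529). AT3G05180 had signals of 49.9, 55.6 and 52.8 after ozone, against 120.6, 79.2 and 109.1 in scrubbed air (log2 fold change -0.94, limma adjusted p = 0.0115). The ozone arrays agreed within a narrow range while the controls spread, and the adjusted p was 0.0524 without control replicate 3.

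AT1G09390 had signals of 45.0, 37.6 and 61.2 after ozone, against 90.6, 81.7 and 78.9 in scrubbed air (log2 fold change -0.83, limma adjusted p = 0.025). Its call held without ozone replicate 3 and was lost without any other single array, and without both arrays numbered 1 (adjusted p 0.0562 to 0.0867). AT5G14450 had signals of 46.8, 41.5 and 58.1 after ozone, against 76.4, 76.5 and 83.8 in scrubbed air (log2 fold change -0.71, limma adjusted p = 0.0271). The call was lost without ozone replicate 1 (adjusted p = 0.0604), ozone replicate 2 (0.0965), control replicate 2 (0.0786) or control replicate 3 (0.104). Under an added constant of 64 the fold changes of AT5G33370, AT4G01130, AT3G05180, AT1G09390 and AT5G14450 were -0.40, -0.49, -0.51, -0.41 and -0.34, and all 5 passed.

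The 14 loci that fell moved unevenly over the ozone arrays. The median over these loci of the log2 signal, relative to the mean of the controls, was -1.19 on ozone replicate 1, -1.79 on ozone replicate 2 and -1.13 on ozone replicate 3, against 0.18, -0.09 and -0.09 on control replicates 1, 2 and 3. Ozone replicate 2 was the lowest ozone array at 12 of the 14 and ozone replicate 3 the highest at 9 of the 14. The same order was common on these arrays: among all 2039 probe sets that fell, ozone replicate 2 was the lowest at 60.3% and ozone replicate 3 the highest at 63.6%. Over all tested probe sets the median deviation was -0.20, -0.16 and -0.07 on the 3 ozone arrays, against -0.01, 0.02 and 0.01 on the 3 control arrays.

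Against this direction AT5G03610 rose. It had signals of 922.3, 773.0 and 675.2 on the ozone arrays, against 144.3, 134.0 and 125.8 on the control arrays. The lowest ozone value was far above the highest control value, and the spread was small in both groups (790.2 ± 124 after ozone and 135 ± 9.27 in scrubbed air, SD, n = 3 each). The log2 fold change was 2.54 (SE 0.165, limma adjusted p = 8.65e-05), and within the pairs of arrays with the same replicate number it was 2.68, 2.53 and 2.42. Of the 13648 tested probe sets, 249 had a higher log2 fold change.

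AT5G55050 also rose, by less. It had signals of 88.3, 116.0 and 96.6 after ozone, against 51.0, 54.1 and 59.8 in scrubbed air. The groups did not overlap, and the rise was 1.82-fold (log2 fold change 0.86, SE 0.179, limma adjusted p = 0.0102). Under an added constant of 64 it was 0.46 on the log2 scale, and passed. The calls of both rising loci held without any single array.

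**Figure D3:**
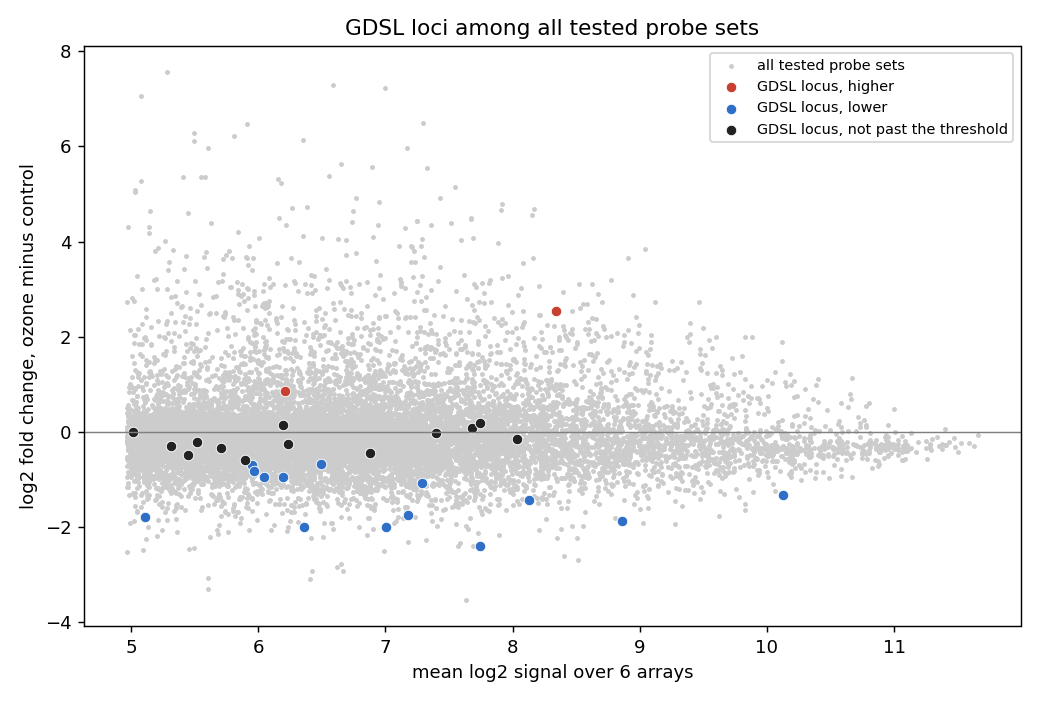
Log2 fold change, ozone minus control, against mean log2 signal over the 6 arrays for all 13648 tested probe sets (grey) and the 29 tested GDSL loci (red, higher; blue, lower; black, not past the threshold). AT5G03610 is the upper red point at 2.54 and AT1G29660 the lowest blue point at -2.40; the loci that fell are found at dim and at bright signals.

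The 13 loci that did not pass had log2 fold changes of -0.60 to 0.19, and 10 were negative. Among them is AT3G48460, a seed fatty acid reducer gene, whose product lowers seed oil content. Whether other members share this role was not examined here. AT3G48460 had signals of 68.7, 112.3 and 59.2 after ozone, against 69.1, 79.6 and 61.8 in scrubbed air. The groups overlapped, and the log2 fold change was 0.14 with a 95% interval of -0.46 to 0.75. AT1G74460 and AT2G23540 stood at log2 fold changes of 0.08 (95% interval -0.58 to 0.74) and -0.03 (-0.54 to 0.48), intervals that hold both a rise and a fall. AT3G50400 had a log2 fold change of -0.22, AT1G71691 of -0.30, AT4G16230 one of -0.34 and AT2G04570 one of -0.26. AT5G37690 had a log2 fold change of -0.44 (limma adjusted p = 0.229), and it passed with the replicate block (adjusted p = 0.0417). Without ozone replicate 2 or control replicate 1 its fold change was -0.24 or -0.23. AT1G54790 stood at -0.01, near the filter level in both groups.

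A block of members lies close together in the gene order, and differences between their responses were not tested. Between AT1G28570 and AT1G28670 the annotation places 9 of the 46 loci in 2 runs of direct neighbours, 5 and 4 genes long. Of the 7 with a probe set of their own, 4 were tested and 0 passed (limma; adjusted p 0.0589 to 0.599, with 1 at an unadjusted p under 0.05), where 14.9% of all tested probe sets fell and 13.0% rose. AT1G28570 came closest, with signals of 47.1, 40.5 and 59.1 after ozone, against 80.2, 68.0 and 71.6 in scrubbed air. Its groups did not overlap (log2 fold change -0.60, limma adjusted p = 0.0589), and it passed with the replicate block (0.017) and without ozone replicate 3 (0.0352).

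AT1G28610 had a log2 fold change of -0.49 with overlapping groups (limma adjusted p = 0.24, and 0.0497 with the replicate block), and -0.21 without ozone replicate 1. AT1G28580 and AT1G28600 had signals of 139.3 or more on every array and fold changes of -0.16 and 0.19 on the log2 scale, with 95% intervals of -0.52 to 0.20 and -0.38 to 0.77. AT1G28590, AT1G28640 and AT1G28650 were too dim to test, with group means of 8.87 to 14.1. The last 2 genes of the block, AT1G28660 and AT1G28670, share a probe set whose signal cannot be assigned to one of them. That shared probe set had signals of 49.0, 35.3 and 44.1 after ozone, against 275.7, 160.6 and 168.1 in scrubbed air, with no overlap (log2 fold change -2.20, limma adjusted p = 0.000823).

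**Figure D4:**
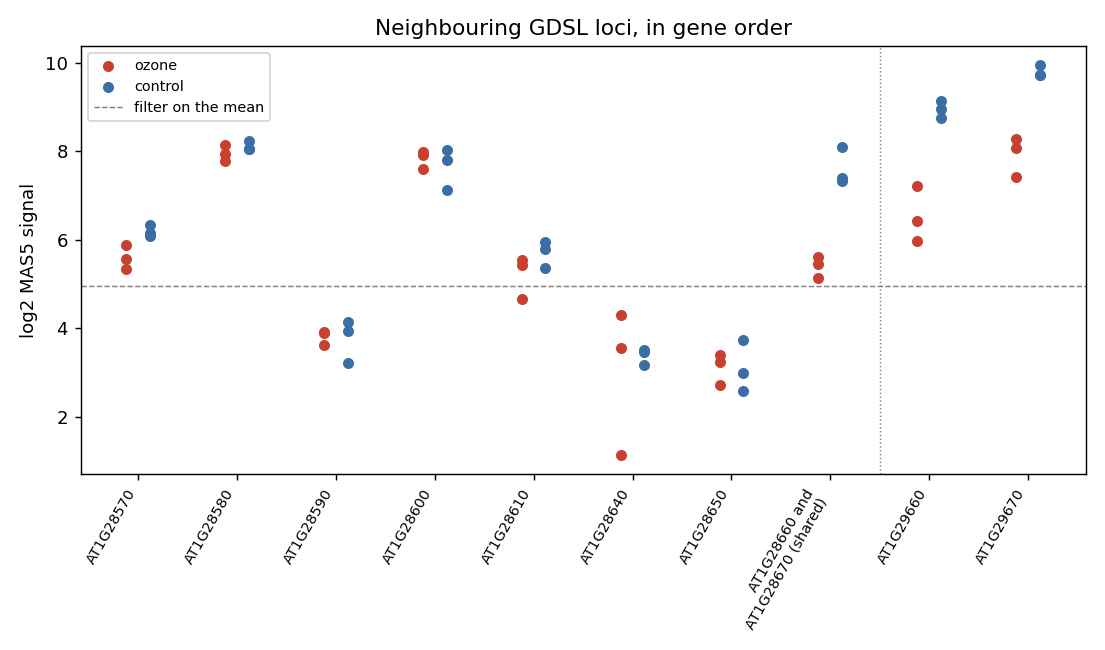
Log2 MAS5 signal on each array (red, ozone, left; blue, control, right) for GDSL loci in gene order, with the block from AT1G28570 to AT1G28670 left of the dotted line and the pair AT1G29660 and AT1G29670 right of it; the dashed line marks the filter signal of 31.2. Within the block the ozone points lie below all control points at AT1G28570, at a log2 fold change of -0.60, and at the probe set shared by AT1G28660 and AT1G28670, at -2.20.

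The remaining members were dim or shared a probe set. Of the 37 loci with a probe set of their own 8 were below the filter, with group means up to 29.3, and a fold at such signals is imprecise. All ozone arrays lay below all control arrays at 3 of the 8, an arrangement found at 13.1% of the 9098 probe sets below the filter: AT1G56670 (1.7, 3.3 and 6.7 after ozone, against 8.5, 7.5 and 13.9 in scrubbed air), AT5G18430 and AT2G42990. The groups overlapped at AT1G06990, AT1G28590, AT1G28640, AT1G28650 and AT1G71250. Beside AT1G28660 and AT1G28670, 4 members were measured only through probe sets shared with another gene: AT5G03820 with AT5G03810, AT2G30220 with AT2G30310, both members, and AT3G26430 with AT3G26420. The probe set of AT5G03810 and AT5G03820 had 11.7, 9.6 and 10.5 after ozone, against 15.6, 16.9 and 20.9 in scrubbed air, all dim. That of AT2G30220 and AT2G30310 was at or under 2.9 on every array. AT3G26430 and AT3G26420 share 2 probe sets, where the groups overlapped and the log2 differences were 0.39 and 0.06. AT1G54010, AT1G67830, an alpha-fucosidase gene that acts on xyloglucan, and AT3G04290, a lipase gene named for lithium tolerance, were not analysed here.

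Other genes of the surface lipid pathways could hardly be read. Of 55 loci listed for cutin, wax and suberin synthesis and their regulators, 3 had a probe set of their own and 1 was tested. The annotation used gave no gene for 8794 of the 22810 probe sets, so the array may measure more of these loci. This is DEWAX, a transcription factor that represses wax synthesis genes, with signals of 549.7, 253.4 and 260.4 after ozone, against 899.2, 332.5 and 297.7 in scrubbed air. The arrays numbered 1 were the highest in both groups, and the log2 fold change of -0.43 did not pass (limma adjusted p = 0.523, and 0.0208 with the replicate block). The fold change turned to 0.073 without control replicate 1 and was -0.80 without ozone replicate 1. The wax ester synthase gene WSD1 had 1.1, 0.7 and 4.5 after ozone, against 5.7, 6.3 and 9.2 in scrubbed air, and the regulator SHN3 stayed at or under 5.0 on every array. The 18 listed cutin genes and 10 listed suberin genes were not analysed here.

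Of 20 markers of epidermis, root, root hair, endodermis, guard cell, mesophyll and phloem, 5 could be tested, 1 fell and 0 rose, against 14.9% and 13.0% of all tested probe sets. The root hair expansin EXPA7 fell by 0.94 on the log2 scale (limma adjusted p = 0.0101), with signals of 28.2, 21.5 and 22.3 after ozone, against 44.3, 45.3 and 47.6 in scrubbed air. Its ozone signals were all under the filter signal, the fall shrank to -0.63 and -0.32 with 16 and 64 added, and the gene was below the filter without control replicate 1 or 3 or without both arrays numbered 1. EXPA18, another root hair expansin, had -0.57 (adjusted p = 0.0938). It had signals of 30.1, 21.0 and 28.7 after ozone, all under the filter signal, against 45.5, 35.8 and 36.4 in scrubbed air. The root gene PYK10 had a log2 fold change of -0.33, and the guard cell genes AT1G22690 and FAMA had -0.44 and -0.34. PYK10 and AT1G22690 passed with the replicate block (adjusted p = 0.00754 and 0.0376), where 30.0% of all tested probe sets fell. Single arrays and settings moved these 3: PYK10 had -0.077 with quantile normalization and -0.13 without control replicate 1, AT1G22690 -0.21 without ozone replicate 3, and FAMA -0.16 without control replicate 2 and -0.62 without control replicate 1. Without both arrays numbered 1, PYK10, AT1G22690 and FAMA passed at -0.26, -0.63 and -0.61 (adjusted p = 0.034, 0.0461 and 0.0412). In that fit 20.1% of all tested probe sets fell. Markers of epidermis, endodermis, mesophyll and phloem were not analysed here, and the part of root hair RNA in the falls of the GDSL loci was not tested. Among the reference genes, 0 of 3 passed, with PEX4 at 0.09, AT4G34270 at -0.13 and AT2G28390 at -0.21 on the log2 scale.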

How the data were processed

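The deposited values are MAS5 signal intensities, 1 per probe set and array, made by the authors with MAS5 per the submitters' processing notes; no version, scaling target or detection call was given in the sources used here. The 2% trimmed mean of each array is 100.0, read from the values. Groups and replicate numbers come from the sample titles. Zeros (95 values) were replaced by the lowest non-zero signal on that array, and log2 was taken with no pseudocount. The fit leaves out 64 control probe sets and those under the 40th percentile of mean log2 signal (31.2), which left 13648. Ozone was compared with control in limma 3.58.1 under R 4.3.3 (lmFit, eBayes with a trend). P-values are two-sided and Benjamini-Hochberg adjusted over these 13648, and 0.05 is the threshold; an adjusted p printed with no setting is from this fit. The code was tested on simulated data.

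Probe sets were named through the platform annotation (13513 with 1 gene, 503 with several, 8794 with none). Loci and neighbours were named through the RefSeq table for TAIR10.1. Signals of different probe sets are not on a common scale. Members and lists were chosen with earlier results of these data known. By the naming rule, values on every array are given for the 15 tested members with the largest fold change, those that rose, the 3 with the highest mean signal and the pair AT1G29660 and AT1G29670; those of other loci were added after their values were seen. Replicate numbers 1, 2 and 3 are shared by the groups, and the titles do not say what they stand for. The numbers were read as pairing the arrays because the deviations of same-numbered arrays correlated at r = 0.747, 0.374 and 0.439. Deviations from a group mean cancel out within the group. Agreement of the arrays numbered 1 therefore makes positive values among numbers 2 and 3 likely, and those values are no separate support for pairing. Ozone replicate 2 correlated with control replicate 3 at 0.368 and ozone replicate 3 with control replicate 2 at 0.412, so mainly the arrays numbered 1 stand apart, and numbers 2 and 3 are not told apart. Alternatives were other normalizations, added constants, filters, variance models, the replicate block, probe sets with shared transcripts left out and each array left out. Leaving out both arrays numbered 1 was chosen after the data were seen. A sequence of any member was not used here.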

Additional observations from a re-analysis of the deposited data

How the results depend on the processing

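The count of members that fell was 14 and stayed between 10 and 17 over the 17 alternatives, and the count that rose was 2 in each; counting every probe set repeats it, since each locus has 1, and leaves out the one shared by AT1G28660 and AT1G28670. The called loci were among the 16 of the report in every alternative except the replicate block and the fit without ozone replicate 3. Without single arrays the number that fell was 10 to 14, with 10 without ozone replicate 2 or control replicate 3. Of all tested probe sets 7.26% to 14.3% fell in these fits. The number was 12 of 27 tested members without both arrays numbered 1 (44.4%), against 20.1% of all tested probe sets. With median centring of the arrays it was 13 (44.8%), against 11.7%. With a filter at the 60th percentile, which tests 19 members, it was 10 (52.6%), against 17.7%. Of the 16 called loci, 11 kept their call in all alternatives that tested them. The replicate block added AT1G28570, AT1G28610 and AT5G37690 (17 falls), changed no other member's call, called 6699 probe sets in all, against 3816, and gave 1 fall in the cuticle and suberin list, DEWAX, against 0. Over all probe sets, leaving out single arrays gave 2220 to 3687 calls, the lowest being 2220 for ozone replicate 2, 2355 for control replicate 3 and 2450 for control replicate 2; the cause was not tested.

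Signs reversed only at loci that did not pass. AT1G54790 had log2 fold changes of 0.081 with quantile normalization, 0.068 with median centring and -0.144 to 0.041 without single arrays. AT2G23540 had 0.044 with median centring and -0.245 to 0.097 without single arrays. Without single arrays AT1G74460 had -0.110 to 0.364, AT1G28600 -0.070 to 0.380 and AT3G48460 -0.130 to 0.332. AT3G50400 had 0.086 without both arrays numbered 1. Signals near the filter level limit what can be said of the dim loci, and 3 arrays a group limit the precision of all.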
